A study of Bos taurus with 32 samples.

Results

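The caruncles (CAR) of both uterine horns were compared within the same cow: the horn on the side of the ovary that held the corpus luteum (ipsilateral) against the other horn (contralateral). All arrays labelled CAR were taken, 16 of the 32 arrays of the series, and they formed 8 pairs of horns by group and label number, 4 from repeat breeder (RB) cows and 4 from normally fertile (non-RB) cows. The same number within a group was assumed to be the same cow. All were non-lactating Japanese Black cows, killed at Day 15 of the cycle with estrus as the start. RB cows had failed to conceive after at least 3 inseminations. Non-RB cows had conceived and had then been aborted with a prostaglandin F2α analog before they cycled again, so that treatment was carried by every control and by no RB cow. CAR tissue was dissected from the middle of each horn, and total RNA was labelled with Cy3 and hybridised to a custom bovine oligonucleotide array, 1 sample per array. The values are log2 signals relative to the 75th percentile of each array, and a horn difference is the ipsilateral minus the contralateral log2 value, so that 1 means a doubling.

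Caruncles are the aglandular, stroma-rich knobs of the ruminant endometrium to which the placenta attaches, whereas the intercaruncular endometrium (ICAR) between them carries the uterine glands. The corpus luteum secretes progesterone, and the ovary and the horn of the same side share a local blood supply through which luteal hormones can reach that horn directly. In cattle the embryo usually stays in the ipsilateral horn at this stage. Progesterone acts through its receptor PGR, estradiol through ESR1, and oxytocin through OXTR, whose rise late in the cycle triggers the pulses of prostaglandin F2α that end luteal life.

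No probe differed between the horns at an adjusted p under 0.05, either over all 8 pairs or in one group, and the horn difference did not differ between RB and non-RB cows at that threshold for any probe (0 of 12825 probes tested in each comparison, or 0%; limma with Benjamini-Hochberg adjustment, smallest adjusted p = 0.985 in the non-RB pairs). Over all 8 pairs, 200 probes had an unadjusted p under 0.05 (1.56% of those tested), of which 125 were higher in the ipsilateral horn (0.975%) and 75 lower (0.585%). The median absolute mean difference was 0.12 on the log2 scale, or 1.09-fold, and the median half-width of the 95% interval was 0.42, or 1.34-fold. That interval is not adjusted for the number of probes. For a typical probe, a difference had to be larger than that to pass the adjusted threshold with 8 pairs. The count at an unadjusted p under 0.05 was 502 without the RB 3 pair, described next, 426 without non-RB 1, 324 without non-RB 3 and 126 without RB 4, and none passed the adjusted threshold in these fits.

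Before the results by gene, 2 arrays need a description. The contralateral CAR array of non-RB 2 stood apart: it had 351 spots flagged as outliers by the scanner software against at most 29 on any other CAR array, and the SD over the 100 spots of the GAPDH probe was 1.32 on it against 0.12 to 0.43 on the others. The SD over probes of its pair's horn difference was 1.1, against 0.53 to 0.79 in the other 7 pairs. The contralateral CAR array of RB 3 went against its compartment label. For each cow, a compartment score was computed from probes chosen in the other 7 cows. These were the 200 with the largest excess of the CAR mean over the ICAR mean and the 200 with the largest excess of ICAR over CAR. The score is their mean level measured from the midpoint between both compartments, with the sign turned for the ICAR probes. The array labelled CAR contralateral RB 3 scored -0.95, on the ICAR side, and the array labelled ICAR contralateral RB 3 scored 1.44, on the CAR side. Over the tested probes, the CAR ipsilateral array of RB 3 correlated more closely with the array labelled ICAR contralateral of that cow (r = 0.995) than with the one labelled CAR contralateral (r = 0.972). The same order was found in RB 2 (0.995 against 0.987) and in non-RB 2 (0.983 against 0.941), so it was not particular to RB 3. The ICAR ipsilateral array of RB 3 also correlated more closely with the array labelled CAR contralateral (0.992) than with that labelled ICAR contralateral (0.970). This second order was absent in RB 2 and non-RB 2 and present in non-RB 1 and non-RB 3. Both orders together were found in RB 3 alone. In RB 3 the levels of gland genes also went against the compartment labels. Gland markers were not kept out of the probes of the compartment score, so these readouts are not independent. The mean log2 level of 8 glandular epithelium markers, 6 of which were higher on average in ICAR than in CAR, was -0.90 on the array labelled CAR contralateral RB 3 and between -3.18 and -1.82 on the other 7 contralateral CAR arrays. It was -3.55 on the array labelled ICAR contralateral RB 3, below the lowest of the other 15 ICAR arrays at -2.43. The labels were kept as given, and results that rest on these pairs are shown with and without them.

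The CAR ipsilateral arrays of non-RB 4 (-0.25) and RB 2 (-0.50) also scored on the ICAR side, so 3 of the 16 CAR arrays did. Conversely, 4 of the 16 ICAR arrays scored on the CAR side: besides RB 3 contralateral, these were the ipsilateral array of non-RB 3 (1.11) and both arrays of non-RB 2 (0.40 and 0.25). The horn difference of the score was -1.12 in non-RB 4, -1.09 in RB 2, -0.54 in RB 4 and 2.25 in RB 3, and between -0.18 and 0.04 in the other 4 pairs. Their part in the horn differences of single genes was not tested. Both horns of non-RB 4, RB 2, RB 3 and RB 4 were on the same slide, always with the ipsilateral array in column 1 and the contralateral one in column 3, so horn and position cannot be told apart in these 4 pairs. In non-RB 1, non-RB 2, non-RB 3 and RB 1 the horns lay on different slides, scanned in different sessions. Their horn differences thus also hold slide and session. Most of them were non-RB pairs, so group is partly confounded with slide and session.

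**Figure D1:**
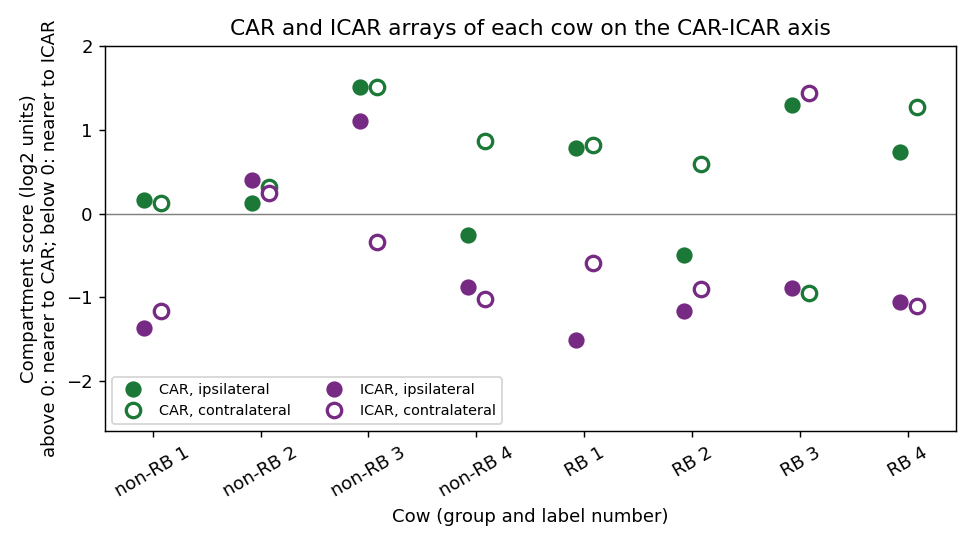
Compartment score of the 4 arrays of each cow (log2 units, vertical axis; cows on the horizontal axis), green for CAR and purple for ICAR, filled for the ipsilateral and open for the contralateral horn. In RB 3 both open symbols lie on the side opposite to their labels, CAR contralateral at -0.95 and ICAR contralateral at 1.44. Of the 16 CAR arrays, 3 lie below 0.

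The pairs did not share a common horn pattern. Across probes, the correlations between the horn differences of 2 pairs had a median of -0.03 over the 28 combinations, and ranged from -0.51 (RB 2 with RB 3) to 0.46 (non-RB 4 with RB 4). Probes of one array share its RNA and hybridisation, so these are descriptions of the arrays. Only 23 probes were higher and 15 lower in the ipsilateral horn in all 8 pairs, 0.296% of the probes tested. Within a cow the horns were nonetheless similar in level, with correlations over probes of 0.972 to 0.988 in 7 pairs and 0.941 in non-RB 2. Opposite horns of different cows of a group correlated at 0.900 to 0.986, so most of this likeness was not particular to a cow.

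Among the 5341 tested probes with a gene symbol, 33 were higher in the ipsilateral horn and 18 lower at an unadjusted p under 0.05 with the same direction in at least 7 of 8 pairs. By the same rule 82 were higher and 36 lower among all 12825 probes tested, so the named counts are close to the share over all probes. The 10 named probes with the largest mean difference on each side are described. They were chosen for these differences, and none passed adjustment over all probes. Of the 20, 15 had an exact permutation p under 0.05, and 9 were well above background on all 16 CAR arrays. All 20 kept their direction without non-RB 2, without RB 3, without both, and in the 4 pairs whose arrays shared a slide. The number with an unadjusted p under 0.05 was then 14, 14, 12 and 8. Since the 20 were chosen for direction and size in these same pairs, the kept directions and permutation p largely follow from that choice. They are no independent support.

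CNGA3, the alpha subunit of the cone-type cyclic nucleotide-gated channel, had the largest mean difference among them. Its log2 level ranged from -8.24 to -6.29 with a median of -7.14 in the ipsilateral horn, and from -9.87 to -5.94 with a median of -8.09 in the contralateral horn. The ranges overlapped, yet the ipsilateral horn was higher in 7 of 8 pairs, RB 3 being the exception at -0.41. The mean difference was 1.13 ± 1.08 (SD, n = 8 pairs; 95% interval 0.44 to 1.81), with an exact sign-flip permutation p = 0.0234. CNGA3 was well above background on 11 of the 16 CAR arrays, 7 ipsilateral and 4 contralateral, and its mean level in CAR minus that in ICAR was -1.29. Without RB 3 the mean difference was 1.30. Here and below, a gene's mean over both groups with a pair left out is the average of the non-RB and RB means, not of the remaining pairs.

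HBZ, the zeta chain of embryonic hemoglobin, and MYOD1, a transcription factor of skeletal muscle, were higher in the ipsilateral horn in all 8 pairs. HBZ levels ran from -1.39 to 1.04 (median -0.70) in the ipsilateral and from -1.98 to -0.45 (median -1.36) in the contralateral horn. The mean HBZ difference of 0.91 ± 0.95 (SD, n = 8 pairs) had an exact permutation p = 0.00781, the smallest that 8 pairs can give, but the pairs spread from 0.09 in RB 4 to 2.94 in non-RB 3. MYOD1 levels ran from -2.45 to -0.03 (median -1.28) and from -3.02 to -0.13 (median -2.15), with a mean difference of 0.76 ± 0.77 and the same exact permutation p = 0.00781. Most of the MYOD1 difference came from 4 pairs, at 0.95 to 2.22, and the other 4 lay between 0.02 and 0.37. Both probes were well above background on all 16 arrays. The HBZ symbol was taken from a likeness to a human transcript in the probe's description, not from an accession match. Its level was also far above the mean level of the 5 red blood cell markers, which was -5.64 over the CAR arrays. What transcript this probe measures was not tested.

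MYH7, the slow beta myosin heavy chain, was also well above background on every array. Its ipsilateral levels were -4.78 to -3.82 and its contralateral levels -6.72 to -4.47, and non-RB 2 held the largest difference at 2.61. Without that pair its mean difference went from 0.71 to 0.48. DPF1, a subunit of neuronal chromatin remodelling complexes, differed by 0.73 ± 1.05, with 2.95 in non-RB 3, 1.56 in non-RB 2 and no more than 0.76 elsewhere. MLST8, a subunit of both mTOR complexes, differed by 0.91 ± 1.03, with 2.90 in non-RB 2 and 2.12 in non-RB 3. In all 3 genes the largest difference was in a non-RB pair whose horns lay on different slides.

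The remaining 4 of the higher group were dim. DNAI1, an intermediate chain of the dynein that moves cilia, was above background on 8 arrays and differed by 0.87 ± 1.08, with the single negative pair in RB 3 at -1.36. BTK, a kinase of B cell signalling, was above background on 6 arrays and differed by 0.70 ± 0.95, also with RB 3 alone below 0, at -1.14. MPIG6B, an inhibitory receptor of platelets and megakaryocytes, differed by 0.76 ± 0.66 and was above background on 7 arrays. FLJ21103, a gene with no role given here, differed by 0.68 ± 0.96 and was above background on 9.

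**Figure D2:**
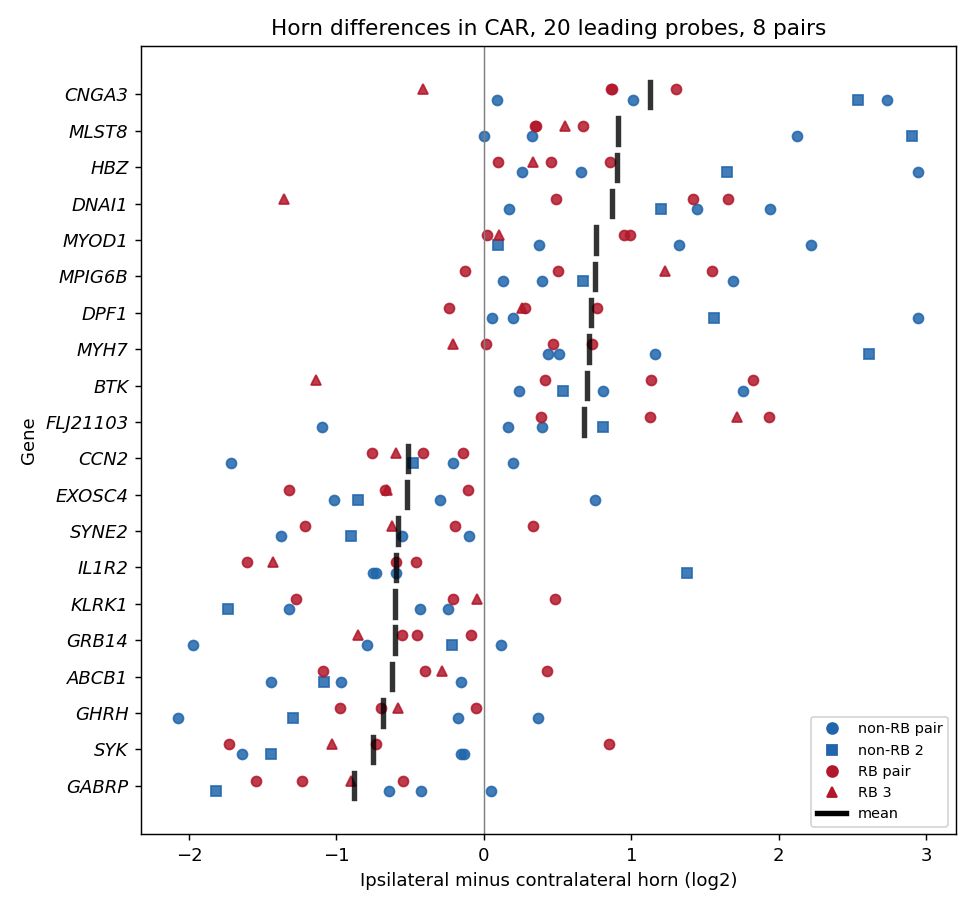
Ipsilateral minus contralateral log2 difference in CAR (horizontal axis) for the 10 probes higher and the 10 lower in the ipsilateral horn, each symbol 1 pair of horns, blue for non-RB and red for RB, a square for non-RB 2, a triangle for RB 3 and a black bar for the mean. HBZ and MYOD1 are the rows with all 8 pairs above 0; every lower gene has 1 pair above 0.

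GABRP, the pi subunit of the GABA-A receptor that is expressed in the uterus, had the smallest p of all probes tested (unadjusted p = 0.00187 by limma, adjusted p = 1). Its level was -7.77 to -4.72 with a median of -6.58 in the ipsilateral horn and -6.72 to -4.54 with a median of -5.43 in the contralateral horn. It was lower in the ipsilateral horn in 7 of 8 pairs, whose differences lay between -1.81 and -0.43, and non-RB 1 lay at 0.05. The mean difference was -0.88 ± 0.62 (SD, n = 8 pairs; 95% interval -1.35 to -0.41; exact permutation p = 0.0156). It was -0.70 without non-RB 2 and -0.91 without RB 3. Both groups contributed, with a mean of -0.71 ± 0.79 in non-RB cows and -1.06 ± 0.43 in RB cows, where all 4 pairs were below 0. The non-RB mean was -0.34 without non-RB 2.

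IL1R2, a decoy receptor that binds interleukin 1 without signalling, was lower in the ipsilateral horn in every pair except non-RB 2. The other 7 pairs lay between -1.61 and -0.46, and non-RB 2 lay at 1.38. Its ipsilateral levels were -5.28 to -2.05 (median -3.43) and its contralateral levels -5.75 to -1.30 (median -2.22). The mean of 8 pairs was -0.60 ± 0.90 with an exact permutation p = 0.125. Without non-RB 2 the mean was -0.86 and its unadjusted p in the limma fit was 0.000908, which also did not pass adjustment over all probes. IL1R2 was well above background on all 16 arrays.

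ABCB1, the P-glycoprotein efflux pump, GRB14, an adaptor that inhibits insulin receptor signalling, SYNE2, a nuclear envelope linker, and CCN2, the matricellular protein also known as connective tissue growth factor, were measured above background on all 16 arrays as well. ABCB1 differed by -0.62 ± 0.62, with RB 2 at 0.42 as the exception. A second ABCB1 probe differed by -0.10 and was lower in only 4 of 8 pairs, so the probes of this gene disagreed in size. GRB14 differed by -0.60 ± 0.65, with its lowest pair, non-RB 4, at -1.97. SYNE2 differed by -0.58 ± 0.58 and CCN2 by -0.51 ± 0.57, and non-RB 4 was the lowest pair for both, at -1.37 and -1.71. CCN2 was bright, with levels of 1.04 to 4.68 in the ipsilateral and 2.75 to 4.48 in the contralateral horn, so its ranges overlapped almost fully.

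KLRK1, the activating receptor NKG2D of natural killer and T cells, differed by -0.60 ± 0.76 (above background on 15 arrays). It was the one member with an unadjusted p under 0.05 of the 15 T and NK cell marker probes tested, of which 8 lay above 0. SYK, a kinase of immune receptor signalling, differed by -0.75 ± 0.89 but was above background on 5 arrays, and its mean was 0.077 after normexp background correction. GHRH, the growth hormone-releasing hormone, differed by -0.69 ± 0.77 (11 arrays) and EXOSC4, a subunit of the RNA exosome, by -0.52 ± 0.64 (10 arrays).

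None of the 14 probes for steroid and oxytocin receptors and related enzymes had an unadjusted p under 0.05 over all 8 pairs. In the 4 pairs on a shared slide, of which 1 is non-RB, 3 of the 14 were lower at that threshold, where 3.2% of all probes were: OXTR (-0.92), HSD17B4 (-0.83), a peroxisomal enzyme, and 1 of the 2 probes of the glucocorticoid receptor NR3C1 (-0.85, the other 0.23). PGR levels were -1.05 to 0.44 (median -0.41) in the ipsilateral and -0.67 to 0.30 (median -0.38) in the contralateral horn. PGR was higher in 4 pairs and lower in 4, with a mean difference of -0.16 ± 0.46 (SD, n = 8 pairs; 95% interval -0.56 to 0.24; exact permutation p = 0.336). OXTR levels were -3.34 to -1.19 (median -1.89) and -3.45 to -0.01 (median -1.61). OXTR was lower in the ipsilateral horn in 6 of 8 pairs, with a mean of -0.44 ± 0.71 (95% interval -0.98 to 0.09; exact permutation p = 0.125), and non-RB 3 lay at 0.87. The brighter ESR1 probe differed by 0.27 ± 0.76 (exact permutation p = 0.312) and was higher in 5 pairs. The dimmer one, above background on 6 arrays, differed by 0.05 ± 1.42.

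The gene lists gave few members at an unadjusted p under 0.05, and none was called after adjustment. Over all probes, 0.975% were higher and 0.585% lower at that threshold. Among 20 progesterone-responsive probes, SPP1 was higher and CCN2 and SLC5A1 were lower. SPP1, the secreted adhesion protein osteopontin, differed by 0.68 ± 1.06, was higher in 6 of 8 pairs and reached 2.47 in RB 3. Its mean without that pair was 0.48. SLC5A1, the sodium-glucose cotransporter, differed by -0.33 ± 0.40, was lower in 6 of 8 pairs, with all 4 RB pairs between -0.89 and -0.39, and was also the 1 of 15 solute transporter probes below that threshold. ELN, the elastic fibre protein elastin, was the 1 of 20 extracellular matrix probes, at 0.36 ± 0.32 and higher in 7 of 8 pairs. CTSD, a lysosomal aspartic protease, was the 1 of 23 protease and inhibitor probes. CTSD was higher in all 8 pairs, with an exact permutation p = 0.00781, but non-RB 2 lay at 2.41 and the other 7 pairs between 0.05 and 0.72, and its mean went from 0.60 to 0.36 without that pair. CDH2, the mesenchymal N-cadherin, was the 1 of 25 adhesion and junction probes, at -0.35 ± 0.32 and lower in 7 of 8 pairs. MSX2, a homeobox transcription factor, was the 1 of 20 patterning probes, at 0.58 ± 0.67 with 2.10 in non-RB 3.

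The other 8 lists had no member at an unadjusted p under 0.05. The median difference of the 14 lists lay close to that of all probes, which was -0.01. It was -0.07 for the steroid and oxytocin receptors (14 probes), 0.06 for progesterone-responsive genes, -0.06 for prostaglandin synthesis, transport and receptors (18 probes), 0.07 for the IGF system (14), -0.09 for vascular signalling (25), -0.08 for interferon-stimulated genes (12) and -0.09 for solute transporters. It was 0.03 for extracellular matrix, 0.03 for proteases, -0.02 for adhesion, -0.00032 for patterning genes, -0.0053 for the cell cycle (15 probes), -0.02 for immediate early and heat shock genes (21) and 0.01 for oxidative stress (19). In these 8 lists the members with the highest and lowest mean had 95% intervals that held 0. PTGES2, a prostaglandin E synthase, differed by 0.24 ± 1.08 and PTGER2, a prostaglandin E receptor, by -0.37 ± 0.53. IGFBP5 differed by 0.42 ± 0.70 and IGFBP4 by -0.30 ± 0.98, both being carriers of IGFs. The angiogenic ligands VEGFD and PDGFB differed by 0.42 ± 1.16 and -0.47 ± 0.79. The interferon-induced GTPase MX2 differed by 0.26 ± 1.05 and USP18, which removes ISG15 from proteins, by -0.53 ± 0.88.

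The other extremes were as follows. The iron exporter SLC40A1 differed by 0.20 ± 0.54, fibronectin (FN1) by -0.36 ± 0.64 with a second probe at -0.03, and the protease MMP7 by -0.28 ± 1.39. E-cadherin (CDH1) differed by 0.58 ± 2.35, its pairs running from -2.38 to 4.25, the widest spread among these. FGF10, a stromal growth factor, differed by -0.45 ± 1.0. The replication helicase subunit MCM3 differed by 0.44 ± 0.79 and was above background on 4 arrays, and the mitotic protein CENPF by -0.45 ± 0.93. The early response genes IER3 and DUSP1 differed by 0.22 ± 0.58 and -0.31 ± 0.41. The antioxidant enzymes GPX4 and SOD1 differed by 0.43 ± 0.97 and -0.32 ± 0.47.

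Of the 10 lists of cell type markers, the ciliated cell list had the largest median, 0.30 over 7 probes, with 6 above 0 and 1 at an unadjusted p under 0.05 (DNAI1). Cilia of this kind are motile and are moved by axonemal dyneins, and in the endometrium ciliated cells lie in the luminal and glandular epithelium. Its mean level was higher in the ipsilateral horn in 7 of 8 pairs: by 0.27 in non-RB 1, 0.94 in non-RB 2, 0.11 in non-RB 3, 0.81 in non-RB 4, 0.04 in RB 1, 1.35 in RB 2 and 0.95 in RB 4. In RB 3, whose contralateral CAR array scored on the ICAR side, the difference was -1.78 and none of the 7 probes was higher. In ICAR of the same cow it was 1.78. The pairs with high values were also those whose compartment score lay further toward ICAR in the ipsilateral horn, at -1.12 in non-RB 4, -1.09 in RB 2 and -0.54 in RB 4, though not non-RB 2 (-0.18). The mean level of glandular markers differed by 0.86 in non-RB 4, 0.67 in RB 4 and 0.08 in RB 2. The part of these shifts in the ciliated cell values was not tested. The list was higher in ICAR than in CAR, with a mean level of -2.38 ± 0.85 against -3.54 ± 0.71 (SD, n = 16 arrays each). Without RB 3, all 7 probes lay above 0 with a median of 0.67, and 4 of 7 had an unadjusted p under 0.05, where 2.18% of all probes were higher at that threshold. These were DNAI1 (1.19), CAPS (0.72), a calcium-binding protein of ciliated cells, and the axonemal tektins TEKT1 (0.67) and TEKT2 (0.54). RSPH1, a radial spoke protein, differed by 1.1, SPAG6, an axonemal central pair protein, by 0.25 and TPPP3, a tubulin-binding protein, by 0.13. The axonemal dynein gene DNAH9, not on the list, differed by 0.26 without RB 3 and by -0.02 over all 8 pairs. Its non-RB pairs all lay above 0 and its RB pairs below. None passed adjustment over all probes, and the choice to leave out RB 3 was made after its values were seen.

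**Figure D3:**
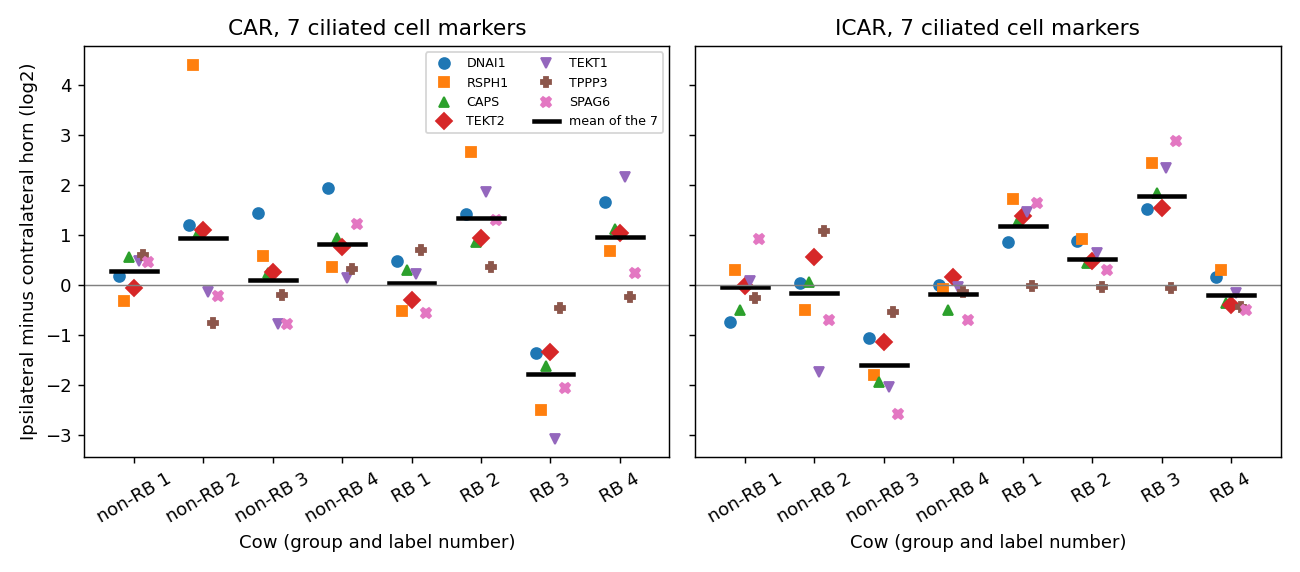
Ipsilateral minus contralateral log2 difference (vertical axis) of 7 ciliated cell markers in each cow (horizontal axis), CAR on the left and ICAR on the right, with a black line at the mean of the 7. In CAR the line lies above 0 in 7 cows and at -1.78 in RB 3, and in ICAR it lies at 1.78 in RB 3 and above 0 in 3 of 8 cows.

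Among the other marker lists over all 8 pairs, glandular epithelium markers had a median of 0.0028 over 8 probes and epithelial markers 0.11 over 13, with the RB 3 pair at -2.19 and -0.76 in mean level. Without that pair their medians were 0.24 and 0.29, and BPIFB1 and SPDEF of the gland list and CLDN7 and SPINT2 of the epithelial list were higher at an unadjusted p under 0.05, which is 2 of 8 and 2 of 13 probes where 2.18% of all probes were. Stroma markers had a median of 0.0046 (12 probes), macrophages 0.09 (10), T and NK cells 0.03 (15), smooth muscle -0.07 (8), B and plasma cells 0.04 (6) and endothelium -0.04 (10). KLRK1 was the 1 member of these 6 lists at an unadjusted p under 0.05. Red blood cell markers had a median of 0.11 with 5 of 5 probes above 0, and their mean level was higher in the ipsilateral horn in 6 of 8 pairs, by up to 0.84 in non-RB 2. HBZ was not on that list. In RNA from whole tissue, more cells of a type and more RNA per cell cannot be told apart.

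In the 4 non-RB pairs, 306 probes had an unadjusted p under 0.05 (2.39%), 212 higher (1.65%) and 94 lower (0.733%) in the ipsilateral horn. In the 4 RB pairs there were 73 (0.569%), 41 higher (0.32%) and 32 lower (0.25%). Non-RB 4 was the only non-RB pair with both horns on the same slide, and RB 1 the only RB pair without, so these counts also differ in slide and session. The non-RB count was 916 without non-RB 1, 551 without non-RB 3 and 165 without non-RB 2, and the RB count was 226 without RB 3, 158 without RB 2, 113 without RB 1 and, in the joint fit, 117 without non-RB 2. With 4 pairs an exact sign-flip test cannot go below p = 0.125, so the size and the pairs are given.

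In the non-RB cows, CNGA3 (1.59 ± 1.27, n = 4 pairs) and HBZ (1.38 ± 1.20) were again among the 4 probes with the largest positive differences that were shared by all 4 pairs. PATL1, an mRNA decapping factor, lay at 0.73, 4.66, 0.94 and 0.51 in non-RB 1 to 4. GRP, the gastrin-releasing peptide made by uterine glands, lay at 0.15, 4.82, 0.80 and 0.62. For both, non-RB 2 made most of the mean, which went from 1.71 to 0.73 for PATL1 and from 1.60 to 0.52 for GRP without it. On the lower side stood KRT15, a basal epithelial keratin, at -1.14, -4.96, -0.22 and -1.06. KRT15 was above background on 5 CAR arrays, and its mean went from -1.85 to -0.81 without non-RB 2. MAEL, a germline piRNA factor, had a mean of -1.09 ± 0.75, DCAF16, a ubiquitin ligase receptor, -1.0 ± 0.64, and KLRK1 -0.94 ± 0.71.

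In the RB cows, FLJ21103 had a mean of 1.29 ± 0.69 (SD, n = 4 pairs), SPP1 of 1.28 ± 1.04 and PRL, the prolactin gene, of 0.75 ± 0.98. For PRL the RB 3 pair lay at 2.18 and the other 3 between 0.08 and 0.57, and the RB mean without RB 3 was 0.27. The lower side held ADGRL3, an adhesion receptor of the latrophilin family, at -1.64, -1.18, -1.10 and -0.80 in RB 1 to 4. It held also CCL11, the eosinophil chemoattractant eotaxin (-1.11 ± 0.80, above background on 8 of 16 arrays), GABRP (-1.06 ± 0.43) and IL1R2 (-1.02 ± 0.58). ADGRL3 and GABRP had the tightest RB pairs of these 7 genes.

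Whether the horn difference itself differed between RB and non-RB cows was tested as RB minus non-RB. That comparison carries the partial confounding with slide and session described above. The unadjusted p was under 0.05 for 100 probes (0.78%), 27 with a higher horn difference in RB cows (0.211%) and 73 with a lower one (0.569%). The pairs of both groups did not overlap for 7 of these probes in the first direction (0.0546% of those tested) and for 29 in the second (0.226%). The 100 became 387 without non-RB 1, 204 without non-RB 3 and 156 without non-RB 4. Named probes without overlap are described, 4 in each direction. For each the exact permutation p over the splits of 8 pairs was 0.0286, the smallest such splits can give. That value is fixed by the choice of probes without overlap, so it is no support for them.

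IGF1, a growth factor that acts on the endometrium and conceptus, lay at -0.27, -1.41, -0.05 and -0.86 in non-RB 1 to 4 and at 0.45, 0.09, 2.09 and 0.07 in RB 1 to 4. Every non-RB pair was below 0 and every RB pair above, but the RB mean of 0.68 was 0.20 without RB 3, and the non-RB mean of -0.65 was -0.39 without non-RB 2. A second IGF1 probe gave -0.65 in non-RB and 0.10 in RB cows. PRL differed in the same direction, with all non-RB pairs between -0.75 and -0.18. FCF1, a ribosome biogenesis factor, was well above background on all arrays, with non-RB pairs from -0.87 to -0.07 and RB pairs from 0.11 to 0.33. AGRP, an appetite neuropeptide above background on 6 arrays, had group means of -0.49 and 0.59.

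In the other direction, EPB42, a red cell membrane protein and a member of the red blood cell list, had the smallest p of the 8 in the limma fit, 0.00453 unadjusted and 1 adjusted (exact permutation p = 0.0286, fixed by the lack of overlap). It lay at 0.56, 1.88, 1.19 and 0.07 in non-RB 1 to 4 and at -0.48, -2.03, -0.55 and -0.39 in RB 1 to 4, and was above background on 9 arrays. Its non-RB mean of 0.92 was 0.61 without non-RB 2. PATL1 had group means of 1.71 in non-RB and -1.0 in RB cows, the first of which was 0.73 without non-RB 2. Without non-RB 2 and RB 3 together, 3 of the 8 differences between the groups kept an unadjusted value under 0.05 in the limma fit, those of PATL1, EPB42 and AGRP. CCL11 had group means of 0.92 and -1.11, which were 0.34 without non-RB 2 and -0.71 without RB 3. DNAH9, an axonemal dynein heavy chain, had group means of 0.75 and -0.79, which were 0.33 without non-RB 2 and -0.24 without RB 3, its lowest pair at -2.44.

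**Figure D4:**
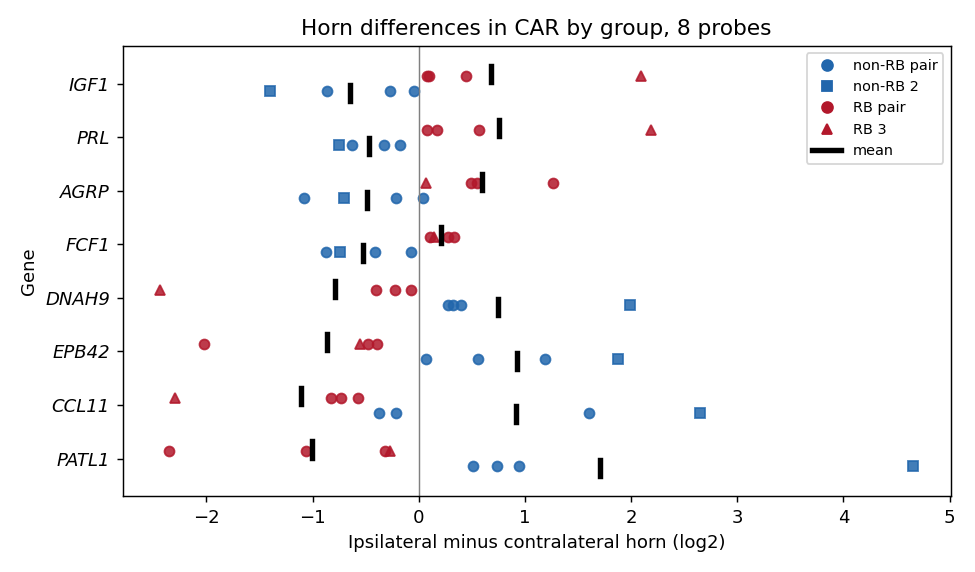
Ipsilateral minus contralateral log2 difference in CAR (horizontal axis) of the 8 named probes whose non-RB (blue) and RB (red) pairs do not overlap, with black bars at the group means, a square for non-RB 2 and a triangle for RB 3. RB 3 is the most extreme RB pair for IGF1 (2.09), PRL (2.18), DNAH9 (-2.44) and CCL11 (-2.29).

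The horn comparison of ICAR from the same cows was set beside that of CAR, on the probes tested in CAR. The contralateral ICAR array of non-RB 1 stood apart, with 100 outlier spots, an SD of 0.87 over the GAPDH spots and 74.3% of probes above background, and the SD over probes of its pair's ICAR horn difference was 1.14. The CAR horn difference minus the ICAR horn difference had no probe at an adjusted p under 0.05 (0 of 12825) and 131 at an unadjusted p under 0.05 (1.02%), which became 362 without RB 3, 283 without non-RB 2, 223 without non-RB 1, 77 without RB 1 and, chosen after seeing the data, 912 without non-RB 1, non-RB 2 and RB 3. ICAR itself had none called, with 269 probes higher and 75 lower in the ipsilateral horn at an unadjusted p under 0.05. Of the 10 leading probes higher in CAR, 7 had the same sign in ICAR, and of the 10 lower, 4 had. MYOD1 differed by 0.74 in ICAR (higher in 6 of 8 pairs) beside 0.76 in CAR, and DPF1 by 0.63 beside 0.73. GABRP differed by 0.06 beside -0.88, CNGA3 by -0.09 beside 1.13, MPIG6B by -0.48 beside 0.76 and CCN2 by 0.40 beside -0.51. Since the probes were selected for their CAR difference, these pairs of values are a description. Across all tested probes the CAR and ICAR horn differences of a cow correlated between -0.13 and 0.37 in 7 cows and at -0.80 in RB 3.

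**Figure D5:**
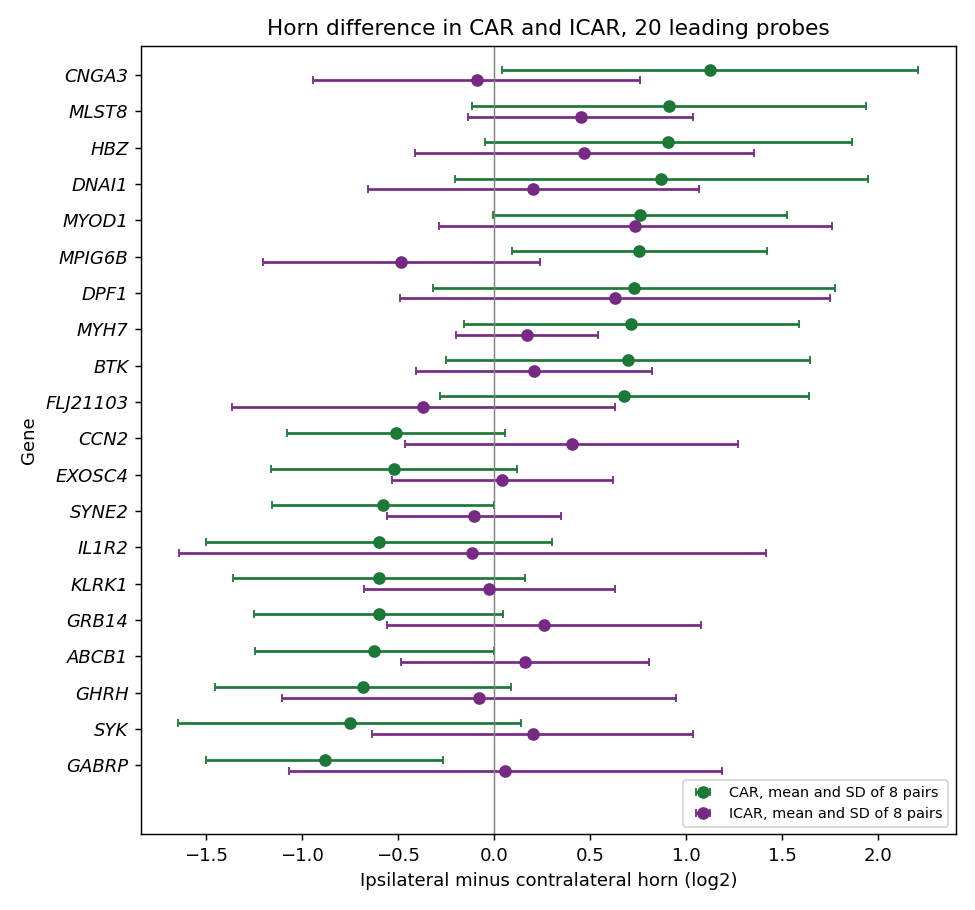
Mean horn difference (log2, horizontal axis) with the SD over 8 pairs for the 20 leading CAR probes, in CAR (green) and ICAR (purple). The CAR means lie between 0.68 and 1.13 or between -0.88 and -0.51 because the probes were selected for them, and the ICAR means lie between -0.48 and 0.74.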

How the data were processed

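Total RNA of CAR and ICAR from both horns of 8 cows was hybridised, 1 sample per array, to a custom Agilent bovine array of 60-base probes. The deposited table holds log2 values that the authors made from the scanner's processed signals, which Agilent Feature Extraction (version 9.5, per the labels' processing notes) had background-corrected. It was checked against the deposited scanner intensities: each column equals the log2 processed intensity minus the array's 75th percentile, up to a constant of 0.0042 to 0.0140, with an SD of at most 4.73e-07. Column medians of the CAR arrays were -2.99 to -2.65. The 75th percentile intensity was 2246 to 4857 and 78.4% to 85.8% of the probes were well above background. The number of arrays limits the precision.

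Probes of identical sequence were averaged (15208 probes, 15011 sequences), and 12825 were tested, those the scanner software marked as well above background on 4 or more CAR arrays. Symbols came from the array files and from a RefSeq gene table, and 5341 tested sequences had one. Horn differences were paired by group and number in the labels, where a number within a group was assumed to be 1 cow. Deviations from the group means correlated by 0.41 on average for the horns of a pair, with the lowest value, 0.063, in RB 3. For different numbers of a group the mean was -0.14, which largely follows from centring on the group means. The ipsilateral array matched its own contralateral array best within the group in all pairs except RB 2 and RB 3. Paired differences were fitted with limma 3.58.1 in R 4.3.3 with Benjamini-Hochberg adjustment, over all pairs, in each group, and as RB minus non-RB. A value over pairs of both groups was the average of the non-RB and RB means, also where pairs were left out. Two-sided exact permutation tests flipped the sign of the pairs or split them between groups. The scripts were tested on simulated data. Symbols were named by rule: the 10 largest mean differences each way at an unadjusted p under 0.05 with at least 7 of 8 pairs alike, the 4 largest each way per group with all pairs alike and between groups without overlap, each gene list's extremes and members under that threshold, and PGR, ESR1 and OXTR. Members and lists were chosen with earlier results of these data known. The compartment score and ciliated markers of single pairs are descriptions. Alternatives were no pairing, each cow left out, slide, filters, normalizations, array weights and the methods' t-test (unpaired). Probe sequences are not printed, and 1 gene that the rule selects is not reported here.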

Additional observations from a re-analysis of the deposited data

Results flagged for a closer look

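Single pairs or arrays stood apart from the other 7 in 13 of 52 sets of values examined with Dixon's test. Chance marks about 1 in 20 of such sets, but these share the same 8 pairs and most are genes chosen for large differences, so that rate is no yardstick for the 13. Non-RB 2 was the outlying pair for IL1R2 (1.38, others at most -0.46), PATL1 (4.66, others at most 0.94), GRP (4.82, others at most 0.80) and CTSD (2.41, others at most 0.72). The SD over probes of its horn difference was 1.1. Its contralateral CAR array had 351 outlier spots and an SD of 1.32 over the GAPDH spots, against at most 4 and 0.26 on the other contralateral arrays. RB 3 was the outlying pair for DCAF16 (1.67, others at most -0.17), PRL (2.18, others at most 0.57) and the compartment score (2.25, others at most 0.04). Non-RB 4 was the lowest pair for GRB14 (-1.97, others at least -0.86), and non-RB 3 the highest for MSX2 (2.10, others at most 0.82). The ipsilateral CAR array of RB 4 had 29 outlier spots, against at most 9 on the other ipsilateral arrays.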

How the results depend on the processing

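No probe was called over all 8 pairs under any alternative run (smallest adjusted p = 0.0787, with slide as a block). In the non-RB pairs 1 probe was called with slide as a block, that of DNAJC18, a chaperone named after its values were seen, whose paired non-RB mean was 0.90 (adjusted p = 0.985). That value rests on non-RB 4, the 1 non-RB pair on a shared slide. The count at an unadjusted p under 0.05 over all 8 pairs, 200, was 75 without the pairing (no replicate block), 505 (94 higher) in the 4 pairs sharing a slide, which were also those sharing a scan session, 837 (91 higher) with slide as a block, 341 without the filter, 338 with array weights, 102 by the methods' t-test and, chosen after seeing the data, 575 without non-RB 2 and RB 3. Leaving out 1 cow gave 126 to 502. In the same-slide pairs the non-RB value rests on 1 pair. Quantile normalization gave 237 (110 higher). Counts ranged from 118 to 916 in non-RB pairs, 17 to 425 in RB pairs, 41 to 447 for RB minus non-RB and 14 to 912 for CAR minus ICAR. Of 1490 values for named genes, 23 changed sign, and 3 of these had an unadjusted p under 0.05 at first: under normexp background correction SYK lay at 0.077, MAEL in non-RB pairs at 0.085 and AGRP in RB minus non-RB at -0.11. The causes were not tested.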
